A study of Mus musculus with 4 samples.

Results

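Transcripts of the TNF ligand and TNF receptor superfamilies were compared between the sub-lines 4T1-A and 4T1-S, both derived from 4T1, which is a BALB/c mouse mammary carcinoma line. Members were chosen by gene name, with no use of measured values, as all ligands and receptors whose names on the array follow the Tnfsf or Tnfrsf numbering, together with Tnf, Lta, Ltb, Ltbr, Cd40, Cd27, Cd70, Fasl, Edar and Ngfr. The receptor Fas was left out. This gave 59 of 41174 probes, printed as 122 of 43379 spots, for 43 of 27670 genes. Of these, 16 encode ligands and 26 receptors. The remaining gene, Psmg2, was caught through its older name Tnfsf5ip1 and encodes a proteasome assembly chaperone. Older names were also carried by Cd27 (Tnfrsf7), Cd70 (Tnfsf7) and Relt (Tnfrsf19l).

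Each sub-line was represented by 2 single-colour arrays, and the title of the series calls 4T1-S strongly immunogenic. No treatment, time or passage is given for either group, and both share the parental line. Whether replicate arrays held RNA of separate cultures, and whether a sub-line is 1 clone, is not stated. P-values thus cover only the spread of these arrays, which may be technical. A single slide and scan held all 4 arrays, the 4T1-A pair in positions 1 and 2 and the 4T1-S pair in 3 and 4, so an effect of position cannot be told apart from one of the sub-line. Between 54.9 and 59.2 percent of the spots of an array were well above background, the scanner software's flag for a signal clearly over that of its negative controls. Precision is limited by the number of arrays. Of the markers of mammary epithelium, 10 of 10 were above background on all 4 arrays. Of these 6 were called lower in 4T1-S (limma adjusted p under 0.05), beside 3.01 percent of all genes tested. The largest fall was that of the adhesion molecule Epcam, with a log2 difference of -3.78. The other 4 were not called, and 1 of them lay above 0.

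Ligands of the TNF superfamily are trimeric proteins, mostly anchored in the membrane, that cluster receptors with cysteine-rich extracellular repeats. Receptors with a death domain can recruit Fadd and caspase-8 to start apoptosis, and others bind TRAF adaptors that switch on NF-kappaB and JNK. Decoy receptors bind ligand without signalling. In tumours these pairs pass signals between carcinoma cells, T cells, B cells and bone cells.

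Levels are given below as the processed intensity divided by the 75th percentile of the array, and differences as the log2 value of 4T1-S less that of 4T1-A, followed by the standard error (SE) of the limma fit. A probe's level can be compared across arrays but not with that of another probe. The brightest probe stood for its gene, and a gene was tested if that probe passed the background flag on each array of 1 sub-line or more. A total of 25 members met this condition, with Psmg2 counted among them. A member that met it only through its brighter sub-line was more likely to show a difference. A further test treated every probe on its own, and 34 of the 59 probes entered it.

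Of the 25 tested members, 0 rose and 2 fell at an adjusted p under 0.05 (limma, Benjamini-Hochberg over 16172 genes), the receptors Tnfrsf11b and Tnfrsf14. This is 8 percent of the members tested, beside 6.96 percent of all genes tested, a share near the background. Lower calls alone made up 3.01 percent of all genes and higher calls 3.95 percent. At an unadjusted p under 0.05 9 members differed, 5 higher and 4 lower, beside 28.7 percent of all genes tested, 20.5 percent higher and 8.2 percent lower. The median difference of the members was -0.03, beside 0.13 for all genes tested, and it was -0.32 with scaling of each array to its median, which moved the median of all genes to -0.16. The split of all calls moved with that scaling too, from 639 higher and 487 lower to 187 and 893, but the same 2 members were called. Of the 12 members above 0, Cd70, Tnfsf9, Tnfrsf1b, Tnfrsf21 and Tnfrsf11a, none of them called, had differences below 0 with median scaling. The arrays of the sub-lines did not overlap for 8 members that were higher and 7 that were lower in 4T1-S, beside 40.6 and 18.5 percent of all genes tested. Psmg2 was among the lower ones, and without it they numbered 6.

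**Figure D1:**
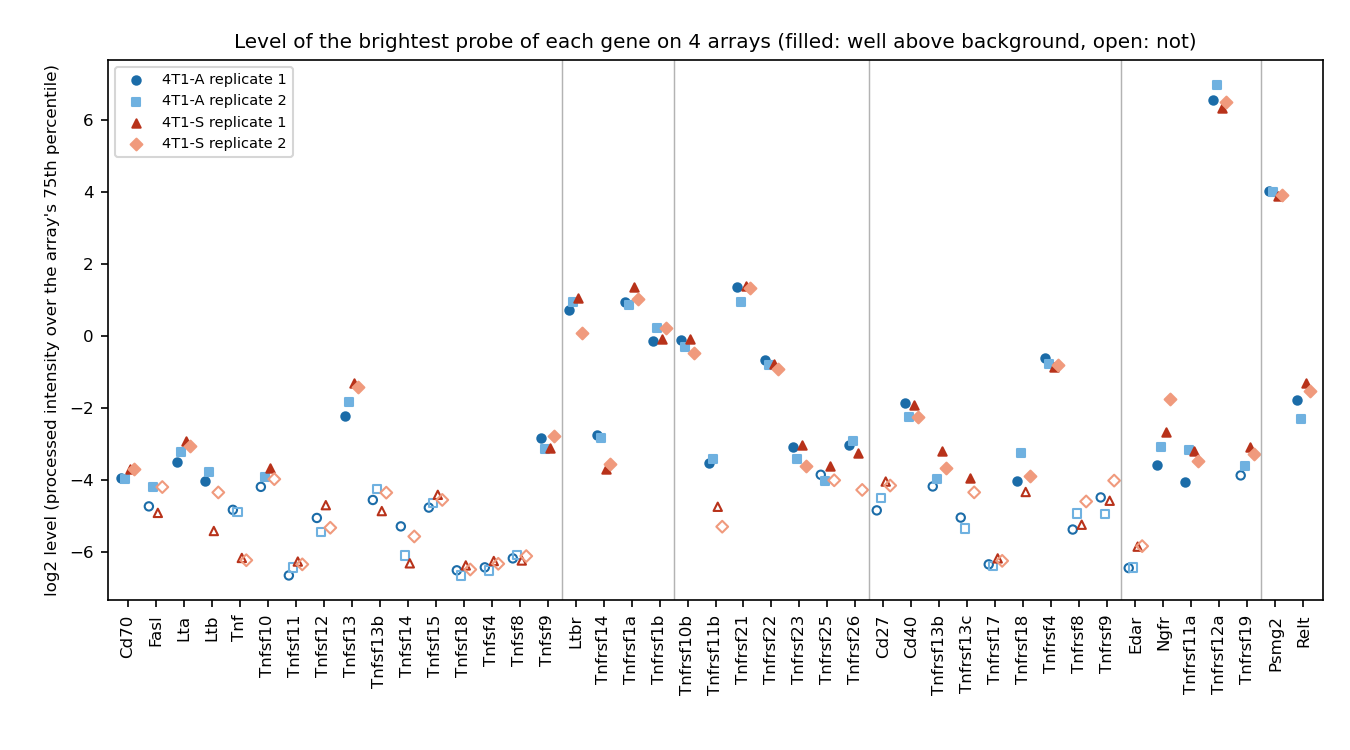
Log2 level of the brightest probe of each of the 43 genes on each of the 4 arrays, with ligands on the left, then the TNF and lymphotoxin receptors, death and decoy receptors, lymphocyte receptors, tissue receptors and the remaining 2 genes, and with open symbols where the probe was not well above background. Most ligands lie in the open symbols at the bottom. The axis covers the whole range of levels, so differences between the 4 arrays of a gene look small on it.

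The RefSeq promoter windows, from 250 bases before to 50 after a listed start site (build GRCm38.p6), were matched for 33 of the 43 genes, in 37 windows. They are shown for 3 members to which the results below refer. Tnfrsf14 was called lower as a gene, a probe of Tnfrsf13b gave the only higher call, and Ltb was above background in 4T1-A alone. Capitals mark a match to the interferon-stimulated response element in Tnfrsf14 (chr4:154928028-154928327, minus strand) and to the NF-kappaB motif, read on the opposite strand, in Ltb (chr17:35194257-35194556, plus strand). The window of Tnfrsf13b (chr11:61126505-61126804, plus strand) held none of the motifs searched.
Tnfrsf14: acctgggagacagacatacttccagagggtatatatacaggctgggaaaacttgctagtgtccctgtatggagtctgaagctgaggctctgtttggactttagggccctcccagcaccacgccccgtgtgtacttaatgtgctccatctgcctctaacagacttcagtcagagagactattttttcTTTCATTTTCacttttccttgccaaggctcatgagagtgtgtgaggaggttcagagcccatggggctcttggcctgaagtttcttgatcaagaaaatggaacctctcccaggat
Ltb: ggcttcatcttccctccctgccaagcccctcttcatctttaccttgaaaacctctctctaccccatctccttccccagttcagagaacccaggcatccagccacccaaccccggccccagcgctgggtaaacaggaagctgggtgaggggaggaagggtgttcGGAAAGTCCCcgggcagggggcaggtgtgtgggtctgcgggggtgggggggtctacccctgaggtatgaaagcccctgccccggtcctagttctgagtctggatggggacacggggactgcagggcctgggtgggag
Tnfrsf13b: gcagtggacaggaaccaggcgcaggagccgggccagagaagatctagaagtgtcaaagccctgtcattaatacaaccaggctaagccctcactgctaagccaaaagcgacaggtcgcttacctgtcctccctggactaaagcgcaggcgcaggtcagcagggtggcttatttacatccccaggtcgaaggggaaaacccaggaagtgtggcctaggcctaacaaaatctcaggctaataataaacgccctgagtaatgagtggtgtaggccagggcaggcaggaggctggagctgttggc
With both strands searched, the interferon motif was in 4 of the 37 windows and in 3.44 percent of 32851 windows of all genes. The NF-kappaB motif was in 1 window and in 0.411 percent of all. The AP-1 motif TGANTCA was in 6 windows, of Tnfrsf8, Tnfrsf9, Tnfsf13, Tnfsf13b and Tnfsf14, where overlapping windows of Tnfsf13b hold the same site, and in 7.81 percent of all. Such matches describe letters only and do not show that a factor binds.

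Ligands were mostly dim. Of 16 ligand genes, 4 were well above background on all 4 arrays by their brightest probe, 9 on no array by any probe and 3 on some arrays. Of the 5 tested, 0 passed the test. At an unadjusted p under 0.05 (limma) 1 was higher and 1 lower, beside 20.5 and 8.2 percent of all genes tested. Tnfsf13, which encodes April, a ligand that supports B cells and plasma cells, had levels of 0.214 and 0.282 in 4T1-A, against 0.403 and 0.371 in 4T1-S. Both 4T1-S arrays were above both 4T1-A arrays, but the difference of 0.66 ± 0.21 did not pass (adjusted p = 0.0949, 95% interval 0.17 to 1.14). In the reference table Tnfsf13 overlaps the read-through gene Tnfsfm13 and the antisense gene Tnfsf13os, whose transcripts the probe may not separate.

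Lta, which encodes lymphotoxin alpha, was spotted 10 times on each array. Its mean levels were 0.0885 and 0.106 in 4T1-A, against 0.133 and 0.12 in 4T1-S, a difference of 0.38 ± 0.20 (adjusted p = 0.237). The spots themselves ranged from 0.0777 to 0.127 in 4T1-A and from 0.102 to 0.16 in 4T1-S, so they overlapped although the array means did not. Cd70, the ligand of the T cell receptor Cd27, had levels of 0.065 and 0.0632 in 4T1-A, against 0.0777 and 0.0771 in 4T1-S (0.27 ± 0.18, adjusted p = 0.357). Its direction depended on the scaling, with -0.02 after median scaling, -0.06 after quantile normalization and -0.13 after cyclic loess. Tnfsf9, a co-stimulatory ligand for activated T cells, differed by 0.04 ± 0.21 (adjusted p = 0.932), with a 95% interval of -0.46 to 0.53 and levels between 0.114 and 0.145 on the 4 arrays.

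Ltb encodes lymphotoxin beta, which anchors lymphotoxin alpha at the membrane. Its levels were 0.0607 and 0.0725 in 4T1-A, against 0.0233 and 0.049 in 4T1-S, and neither of the latter passed the background flag. As a bound the fall was at least 1.16-fold, set against the dimmest signals well above background on the 4T1-S arrays or its own where that was higher. This bound holds for the main setting only, and the normexp value below does not reach it. The difference of -0.97 ± 0.33 did not pass (adjusted p = 0.109). It passed without 4T1-S replicate 2 (-1.51, adjusted p = 0.0489) and without 4T1-A replicate 1 (-1.10, adjusted p = 0.0124), whereas leaving out replicate 1 of 4T1-S gave -0.44 (adjusted p = 0.364) and normexp background correction gave -0.02 (adjusted p = 0.904).

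Tnf itself passed the background flag on none of the 4 arrays and was not tested. Its 10 spots per array are copies of the same probe, so they are not replicates of a sub-line. They ranged from 0.0206 to 0.0505 and from 0.0247 to 0.0544 on the 4T1-A arrays. On the 4T1-S arrays the ranges were 0.0121 to 0.0152 and 0.0111 to 0.016, below every 4T1-A spot. By the scanner's weaker flag, a signal significantly above background, 10 of 10 spots passed on each 4T1-A array and 0 of 10 on each 4T1-S array, where all 10 spots held surrogate values. No size is given, since neither sub-line was well above background and the 4T1-S values are the scanner's substitutes for low signals. For the same reason the separation of the spots is not a test between the sub-lines. Lta and Ltb are its neighbours in the reference table, and their values are those given above.

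Among the other ligands, Tnfsf10, which encodes the death ligand TRAIL, was above background on 1 array of each sub-line. Its levels were 0.0545 and 0.0663 in 4T1-A, against 0.0785 and 0.0633 in 4T1-S, and the ranges overlapped. Fasl, the ligand of Fas, was above background on 1 array of 4T1-A by 1 probe (0.0543) and on none by its other, 10-spot probe. Tnfsf4, Tnfsf8, Tnfsf11, Tnfsf12, Tnfsf13b, Tnfsf14, Tnfsf15 and Tnfsf18 were above background on no array. Tnfsf11 encodes RANKL, the ligand that drives osteoclast formation, and both of its probes lay between 0.00988 and 0.0129. In all, 21 of the 59 probes were above background on no array. Their median difference was 0.18, with 15 above 0, and the lowest signal well above background was also higher on the 4T1-S arrays (0.0596 and 0.055) than on the 4T1-A arrays (0.0511 and 0.0488).

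**Figure D2:**
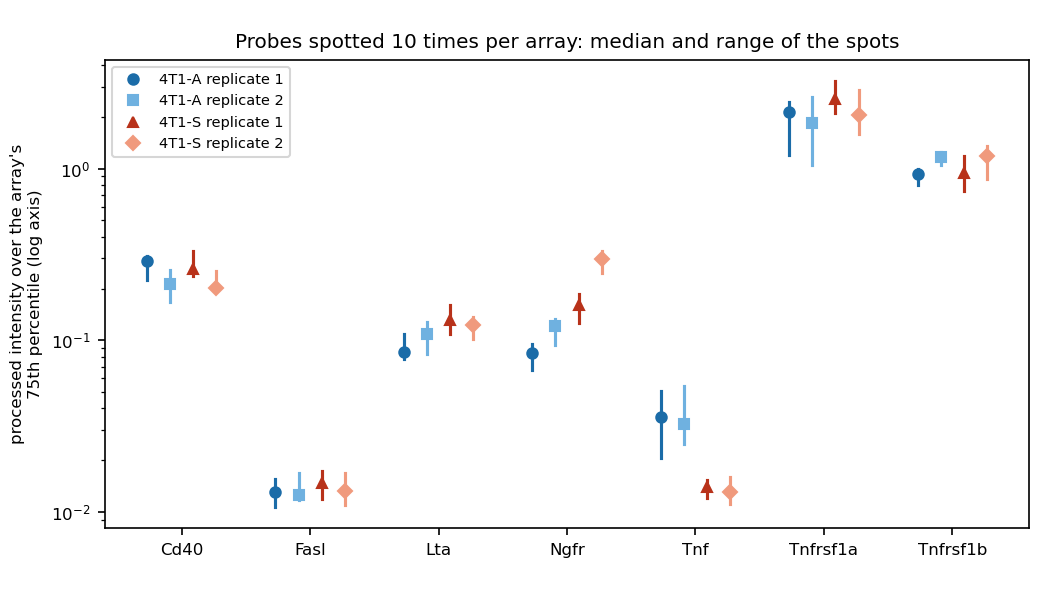
Processed intensity over the array's 75th percentile, on a log axis, for the 7 probes spotted 10 times per array; symbols are the median and lines the lowest to the highest spot. The 4T1-A lines of Tnf lie above the 4T1-S lines without overlap. Those of Ngfr run from 0.0672 to 0.0948 on the lowest array and from 0.248 to 0.333 on the highest. The Ngfr line of 4T1-A replicate 2, from 0.0943 to 0.132, overlaps those of 4T1-A replicate 1 and 4T1-S replicate 1 (from 0.126).

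Receptors for TNF and lymphotoxin were above background on all 4 arrays in 4 of 4 cases. Of them 1, Tnfrsf14, was called lower, beside 3.01 percent of all genes tested. Tnfrsf1a, the death domain receptor of TNF found on most cells, had mean levels of 1.94 and 1.81 in 4T1-A, against 2.59 and 2.05 in 4T1-S. The difference of 0.30 ± 0.20 did not pass (adjusted p = 0.362). Its 10 spots varied with a coefficient of variation between 14.1 and 23.8 percent within an array. Tnfrsf1b, the second TNF receptor, which has no death domain, had levels of 0.91 and 1.16 in 4T1-A, against 0.941 and 1.17 in 4T1-S. The sub-lines overlapped, with a difference of 0.03 ± 0.22 and a 95% interval of -0.47 to 0.53. A separate probe of the gene gave 0.18 ± 0.19 (adjusted p = 0.581).

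Ltbr, the receptor of membrane lymphotoxin, had levels of 1.64 and 1.94 in 4T1-A. On the 4T1-S arrays they were 2.07 and 1.05, which lie on either side of the 4T1-A values. Its difference of -0.27 ± 0.31 (adjusted p = 0.607) turned to 0.22 when 4T1-S replicate 2 was left out and to -0.76 when replicate 1 was.

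Tnfrsf14 encodes HVEM, which binds the ligand Light and the inhibitory receptor Btla of lymphocytes. Its brightest probe had levels of 0.149 and 0.139 in 4T1-A, against 0.0774 and 0.0842 in 4T1-S, and both 4T1-S arrays were below both 4T1-A arrays. The fall was 1.78-fold (-0.83 ± 0.18, limma adjusted p = 0.0396). The other probe, designed to another accession, had levels of 0.0834 and 0.0964 in 4T1-A, against 0.111 and 0.106 in 4T1-S, with the sub-lines in the opposite order (0.28 ± 0.19, adjusted p = 0.41). Its sign depended on the scaling, with -0.02 after median scaling and -0.04 after cyclic loess. With the mean of the probes the difference was -0.28 (adjusted p = 0.294), and with normexp background correction -0.21 (adjusted p = 0.333). Leaving out 4T1-A replicate 1 also ended the call (-0.78, adjusted p = 0.137), as did leaving out replicate 1 (-0.77, 0.175) or replicate 2 (-0.89, 0.156) of 4T1-S. With no filter on background its adjusted p was 0.104. Among all probes tested, its adjusted p was 0.0553.

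Death and decoy receptors numbered 7, of which 6 were tested and 1 was called lower, beside 3.01 percent of all genes tested. Tnfrsf10b, the TRAIL receptor of the mouse, was measured by 3 probes, all above background on all 4 arrays. The brightest had levels of 0.924 and 0.817 in 4T1-A, against 0.944 and 0.718 in 4T1-S. The sub-lines overlapped on each probe, with differences of -0.08 ± 0.22, -0.17 ± 0.23 and -0.06 ± 0.26 in the fit over probes, and 95% intervals that reached from -0.71 to 0.55. Tnfrsf22 and Tnfrsf23 encode decoy receptors of TRAIL and lie beside Tnfrsf26 in the reference table. Their differences were -0.12 ± 0.19 and -0.08 ± 0.25 (adjusted p = 0.715 and 0.869). Tnfrsf26 had levels of 0.123 and 0.132 in 4T1-A, against 0.104 and 0.0514 in 4T1-S, the latter below background, and its difference of -0.80 ± 0.32 did not pass (adjusted p = 0.148). Whether probes of these related genes bind each other's transcripts was not tested.

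Tnfrsf21, a death domain receptor also called DR6, had levels of 2.57 and 1.92 in 4T1-A, against 2.61 and 2.5 in 4T1-S (0.20 ± 0.21, adjusted p = 0.562). A separate probe gave 0.29 ± 0.20, and the probe designed to a further accession was above background on no array. Tnfrsf25, the receptor of Tnfsf15, was above background on 1 array of each sub-line and was not tested.

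Tnfrsf11b encodes osteoprotegerin, a secreted decoy receptor that binds RANKL and TRAIL. Its levels were 0.0864 and 0.0925 in 4T1-A, well above background on both arrays, and 0.0372 and 0.0253 in 4T1-S, above background on neither. The measured difference was -1.54 ± 0.23 (limma adjusted p = 0.00838). In the main setting the fall was at least 1.56-fold, a bound that the normexp value below does not reach. The arrays did not overlap, but the call did not survive leaving out 4T1-S replicate 2 (-1.27, adjusted p = 0.0711), using no filter on background (0.0794) or using normexp background correction (-0.12, adjusted p = 0.543). Over its alternatives the difference lay between -1.94 and -0.12.

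**Figure D3:**
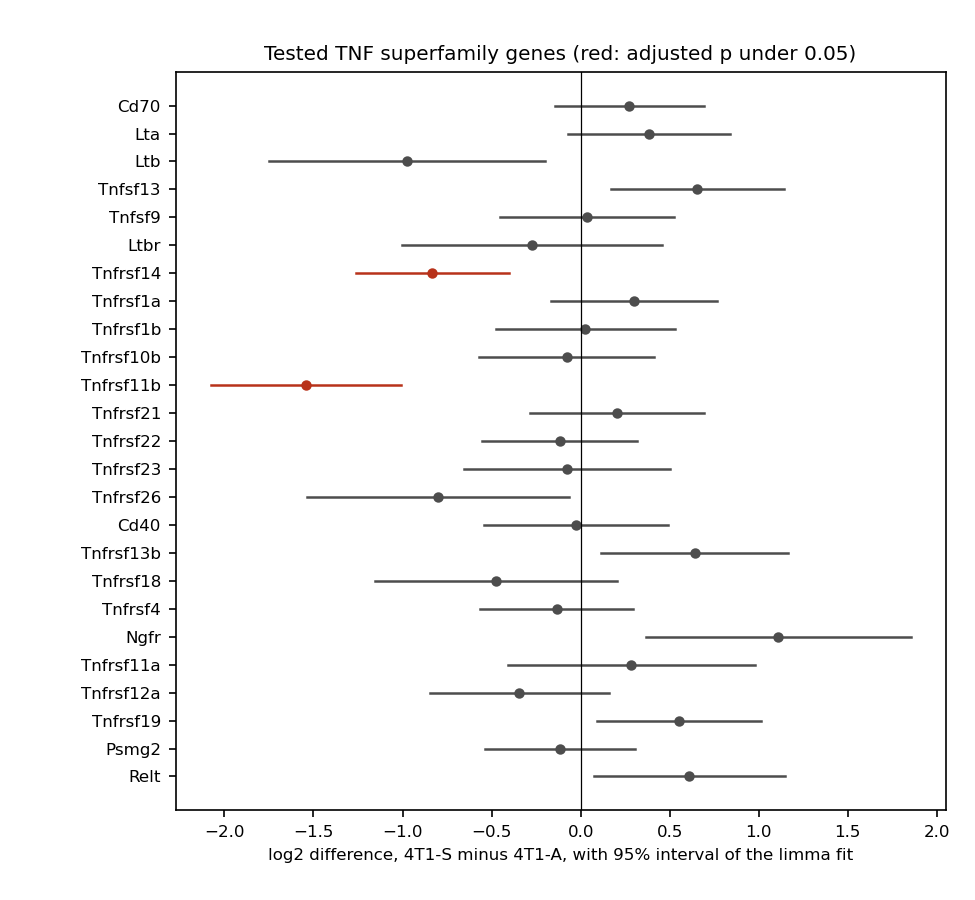
Log2 difference of the 25 tested genes, 4T1-S minus 4T1-A, with the 95% interval of the limma fit; red marks an adjusted p under 0.05. The 2 red genes, Tnfrsf14 and Tnfrsf11b, lie left of 0, while Ngfr has the highest value at 1.11 with an interval from 0.37 to 1.85.

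Co-stimulatory receptors of lymphocytes were dim or did not pass: 2 of 9 were above background on all 4 arrays by their brightest probe and 4 on no array. Of the 4 tested 0 passed, with 1 higher at an unadjusted p under 0.05 (limma), beside 20.5 percent of all genes tested. Cd40, a receptor of antigen-presenting cells that is also found on carcinoma cells, had mean levels over 10 spots of 0.274 and 0.209 in 4T1-A, against 0.265 and 0.209 in 4T1-S. These nearly coincide between the sub-lines (-0.03 ± 0.22, adjusted p = 0.954, 95% interval -0.54 to 0.49). Tnfrsf4, known as OX40 on T cells, had levels of 0.655 and 0.586 in 4T1-A, against 0.554 and 0.575 in 4T1-S (-0.13 ± 0.19, adjusted p = 0.677). Tnfrsf18, known as GITR, was above background on 1 of 2 4T1-S arrays and differed by -0.47 ± 0.29 (adjusted p = 0.324). Cd27, Tnfrsf8, Tnfrsf9 and Tnfrsf17 were above background on no array. Tnfrsf13c, the receptor of B cell survival ligand Baff, was above background on 1 4T1-S array alone and was not tested.

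Tnfrsf13b encodes TACI, a receptor for April and Baff that is known from B cells, and its probes did not give the same size. The probe designed to a cDNA accession had levels of 0.0227 and 0.0272 in 4T1-A, not well above background, and 0.182 and 0.18 in 4T1-S, above it on both arrays. The rise was at least 3.62-fold (measured 2.86 ± 0.20, limma adjusted p = 3.08e-04 over 23690 probes), and it passed in all 13 alternatives that gave it a value. With normexp background correction the measured rise was 2.14-fold (adjusted p = 0.0219), below the bound of the main setting, and in the other alternatives it lay between 5.49-fold and 7.97-fold. The brightest probe, which stood for the gene, had levels of 0.055 and 0.0636 in 4T1-A, against 0.109 and 0.0777 in 4T1-S and did not pass (0.64 ± 0.23, adjusted p = 0.116). With the mean of both probes the gene was called higher (1.75, adjusted p = 0.00266). The reference table lists Usp22 as overlapping Tnfrsf13b, and the files do not give probe positions, so which transcript the brighter signal in 4T1-S belongs to was not tested.

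Markers of leukocytes are given beside this result. Of 12 leukocyte markers, 8 and 7 were above background on the 4T1-A arrays and 9 on each 4T1-S array, and their summed level was 2.5 and 2.55 in 4T1-A, against 4.43 and 4.2 in 4T1-S. Cd14, a receptor for bacterial lipopolysaccharide, rose by 1.21 on the log2 scale (limma adjusted p = 0.00853). It was the 1 gene called of the 8 tested from that list, while 3.95 percent of all genes tested were called higher. Without Cd14 the summed level of the other 11 markers was 1.15 and 1.2 on the 4T1-A arrays and 1.19 and 1.17 on the 4T1-S arrays, which overlap. That sum includes Cd68, which was lower in 4T1-S (log2 difference -0.70, not called). Of the 8 tested leukocyte markers, Cd14 among them, 6 had differences above 0, beside 10178 of all 16172 genes tested. The arrays did not overlap for 5 that were higher and 1, Cd68, that was lower in 4T1-S. The shares over all genes tested were 40.6 and 18.5 percent, and no conclusion is drawn from these counts. The overlap of the sums does not show that the markers other than Cd14 were unchanged. Cd79a, a part of the B cell receptor, did not pass (0.51 ± 0.36, adjusted p = 0.384). Ptprc, the pan-leukocyte marker, was above background on no 4T1-A array and on 1 4T1-S array, and Cd3d and Itgam on no array. Of 8 fibroblast markers 3 were tested and 1, Col1a1, was called higher, beside the same 3.95 percent. In the main setting it rose by at least 2.59-fold from a 4T1-A signal below background. The summed level of the fibroblast markers was 0.685 and 0.906 on the 4T1-A arrays and 1.39 and 1.33 on the 4T1-S arrays. Of 6 endothelial markers 1 was tested and 0 passed. The part of other cell types in the difference of Tnfrsf13b was not tested.

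Over all probes tested, 4 of the 34 member probes passed, 1 higher and 3 lower, which is 11.8 percent beside 4.52 percent of all 23690 probes tested (2.17 percent higher and 2.35 percent lower). Each of the 4 was below background on at least 1 array of its dimmer sub-line, and 3 of them on both. The share over all probes also includes probes of that kind, and no share was taken among those alone. No conclusion is therefore drawn from the difference between the shares. Among probes above background on all 4 arrays, 0 member probes passed. The 3 lower probes were those of Tnfrsf11b, Tnfrsf11a and Tnfrsf19, each of which read above background in 4T1-A and below it on at least 1 array of 4T1-S. Only the probe of Tnfrsf11b was the brightest of its gene. Of 8 members with over 1 probe tested, 4 had probes of opposite sign: Psmg2, Tnfrsf11a, Tnfrsf14 and Tnfrsf19. After median scaling both probes were below 0 for Psmg2, Tnfrsf11a and Tnfrsf14, so that Tnfrsf19 alone of these 4 kept the opposite signs there.

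**Figure D4:**
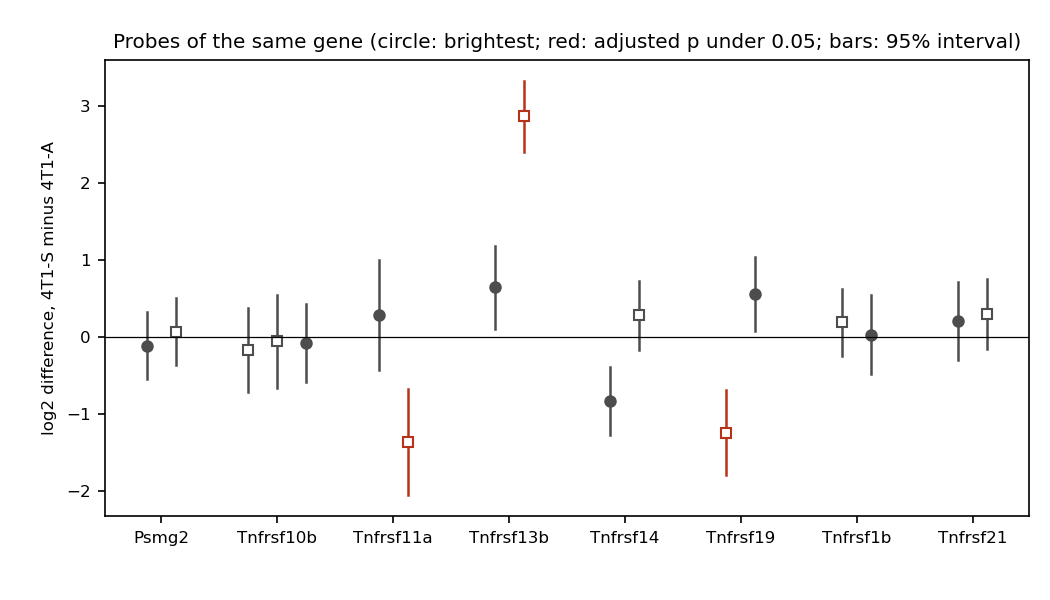
Log2 difference with its 95% interval for each tested probe of the 8 genes that had more than 1, with a circle for the brightest probe of the gene, squares for the others and red for an adjusted p under 0.05 over all probes. The probes of Tnfrsf10b, Tnfrsf1b and Tnfrsf21 lie together, while those of Tnfrsf11a, Tnfrsf14 and Tnfrsf19 lie on opposite sides of 0 in this scaling, and only those of Tnfrsf19 after median scaling as well.

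Tissue receptors gave 0 calls among 4 tested genes by the brightest probe. At an unadjusted p under 0.05 (limma) 2 were higher, beside 20.5 percent of all genes tested. Tnfrsf11a encodes RANK, the receptor of RANKL, which acts in osteoclasts and in mammary gland development. Its brightest probe had levels of 0.0595 and 0.111 in 4T1-A, against 0.109 and 0.0896 in 4T1-S, which overlap (0.28 ± 0.30, adjusted p = 0.573). Another probe had levels of 0.133 and 0.147 in 4T1-A, against 0.0733 and 0.0399 in 4T1-S, above background on 1 of 2 4T1-S arrays. It was called lower (limma adjusted p = 0.0466), and the measured difference of -1.37 ± 0.30 includes the array below background. That call ended on leaving out 4T1-S replicate 2 (-0.93, adjusted p = 0.167), with no filter on background (0.147) and with normexp (-0.32, adjusted p = 0.221).

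Tnfrsf19, also named Troy, is a receptor of embryonic and epithelial tissues. Its brightest probe had levels of 0.068 and 0.0816 in 4T1-A, against 0.117 and 0.102 in 4T1-S (0.55 ± 0.20, adjusted p = 0.12). Its other probe ran the opposite way, with 0.0734 and 0.0989 in 4T1-A, against 0.0409 and 0.0315 in 4T1-S, below background on both 4T1-S arrays. That probe was at least 1.49-fold lower in the main setting (measured -1.25 ± 0.24, limma adjusted p = 0.0314). The normexp value below does not reach that bound. The call ended on leaving out replicate 1 of 4T1-S (-1.44, adjusted p = 0.0615) or replicate 2 (-1.06, 0.165), with no filter on background (0.12) and with normexp (-0.17, 0.38). RefSeq lists 2 start windows for this gene, 8868 bases apart, and the probes were designed to different accessions. Whether they read different transcripts was not tested.

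Ngfr encodes the low-affinity neurotrophin receptor, a marker of basal mammary cells. Its levels over 10 spots were 0.0836 and 0.118 in 4T1-A, against 0.156 and 0.294 in 4T1-S. The array means of the sub-lines did not overlap, but single spots did, with up to 0.132 on 4T1-A replicate 2 and from 0.126 on 4T1-S replicate 1. The 4T1-S arrays lay further from each other than the 4T1-A arrays did. They also lay further apart than the lower 4T1-S array lay from 4T1-A. The difference of 1.11 ± 0.32 did not pass (adjusted p = 0.0759). It passed without 4T1-A replicate 2 (1.36, adjusted p = 5.04e-04), and it was 0.65 (adjusted p = 0.287) without 4T1-S replicate 2. Spots of this probe varied within an array with a coefficient of variation of at most 11.5 percent. A further probe of Ngfr was above background on no array.

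Tnfrsf12a, the receptor of Tweak known as Fn14, which rises in injured and growing epithelium, had levels of 94.1 and 128 in 4T1-A, against 81 and 91.9 in 4T1-S. The arrays of the sub-lines did not overlap, with 4T1-S the lower, but the difference of -0.34 ± 0.22 did not pass (adjusted p = 0.333). Its ligand Tnfsf12 was above background on no array. Edar, the receptor of ectodysplasin in skin appendages, was above background on no array. Relt had levels of 0.293 and 0.203 in 4T1-A, against 0.402 and 0.345 in 4T1-S and did not pass (0.61 ± 0.23, adjusted p = 0.135). Psmg2, which is no member of either superfamily, differed by -0.12 ± 0.18 and by 0.06 ± 0.19 on its other probe.

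Downstream of these receptors, 41 of 43 listed adaptors, kinases, ubiquitin enzymes and caspases were tested, all above background on all 4 arrays, and limma called 0 of them over all genes. Without adjustment, 8 higher and 2 lower differences had a p under 0.05, beside 20.5 and 8.2 percent of all genes tested. The median difference was 0.09, beside 0.13 for all genes, with a range from -0.52 to 0.94. By its level over the 75th percentile, Traf1, an adaptor and NF-kappaB target, read 30.6 and 32.2 in 4T1-A, against 47.4 and 46.8 in 4T1-S. Its difference of 0.59 ± 0.18 did not pass (adjusted p = 0.0891). Traf2, which links Tnfrsf1a and Tnfrsf1b to ubiquitin ligases, read 4.71 and 5.18 in 4T1-A, against 7.7 and 8.53 in 4T1-S (0.71 ± 0.19, adjusted p = 0.0615).

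Tank, a TRAF-binding scaffold, read 3.89 and 4.67 in 4T1-A, against 6.58 and 8.36 in 4T1-S (0.80 ± 0.21, adjusted p = 0.0628), and Traf6 gave 0.94 ± 0.28 (adjusted p = 0.0864). Neither passed, although the arrays did not overlap; 15 of the 41 genes did not overlap with 4T1-S the higher and 11 with 4T1-S the lower, beside 40.6 and 18.5 percent of all genes. Leaving out 4T1-A replicate 2 gave 2 calls, both higher, Tank and Traf6, as did averaging the probes of each gene. Robust fitting with a variance trend called Traf1 higher. Genes of the death pathway showed small differences that did not pass: Fadd (0.26 ± 0.18), Casp8 (0.09 ± 0.19), Ripk1 (-0.03 ± 0.18) and the caspase-8 inhibitor Cflar (-0.42 ± 0.18, adjusted p = 0.174). The ubiquitin-editing inhibitor Tnfaip3, a feedback target of NF-kappaB, differed by -0.02 ± 0.22 (adjusted p = 0.97). Eda, the ligand of Edar, was above background on no array, and Ripk3, the kinase of necroptosis, on 1 array of 4T1-S.

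**Figure D5:**
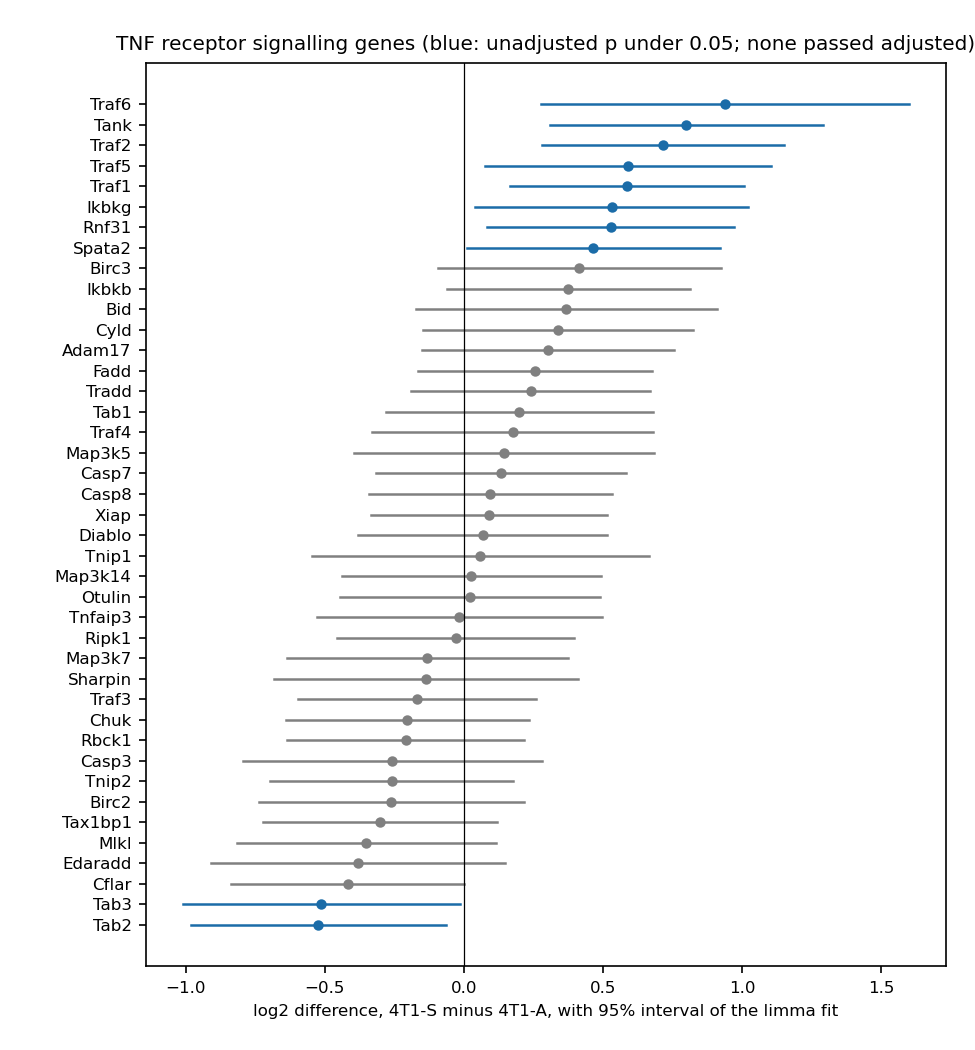
Log2 difference of the 41 tested signalling genes, 4T1-S minus 4T1-A, with the 95% interval of the limma fit, in order of the difference; blue marks an unadjusted p under 0.05. The 10 blue genes comprise 8 to the right of 0, up to Traf6 at 0.94, and 2 to the left, Tab2 and Tab3, and none passed after adjustment.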

How the data were processed

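Per the labels' protocols, total RNA from a column kit was amplified and given a Cy3 label. Per the submitters' processing notes, the authors extracted intensity values with Agilent Feature Extraction 9.1, and the file headers record background subtraction, detrending and surrogate values for low signals, and no scaling between arrays. The deposited series table holds a ratio, the processed intensity over the array's 75th percentile, found from the values since its scale is not given in the sources used here. Its column medians were 0.078, 0.076, 0.098 and 0.091 (4T1-A replicates 1 and 2, 4T1-S replicates 1 and 2). The match was within 0.0005 on 3 arrays, and within 0.511 percent at ratios of 1 or more on that of 4T1-A replicate 1, whose largest difference was 1.042. It shows a linear scale without gene centring.

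Each processed intensity was divided by the 75th percentile of its array and put on the log2 scale. Spots with an outlier flag (between 5 and 9 per array) were left out, and spots of a probe were averaged. A probe counted as well above background on an array where a share above 0.5 of its spots was flagged so. Gene names came from the file of 4T1-S replicate 2, since 47 names in that of 4T1-A replicate 1 differ. Of the 59 member probes, 53 were named through an accession and 6 through a symbol in a RefSeq table of GRCm38.p6. The array files name no build, so no coordinates are given for genes or probes, only those of the RefSeq promoter windows on GRCm38.p6.

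The test was that of limma (version 3.58.1) in R 4.3.3, 2-sided and with moderated variances (5.71 prior and 2 residual degrees of freedom over genes); files were read with the data.table package, version 1.17.8. P-values were adjusted by Benjamini-Hochberg over all genes or all probes tested, at a threshold of 0.05. The fit was run on simulated arrays whose built-in changes were larger than any measured in the tested member genes. Those arrays had no background floor, so the run does not show how smaller or dim differences are called. Alternatives were median, quantile and cyclic loess scaling, normexp, other filters, kept outlier spots, a variance trend, the deposited ratio, the mean of a gene's probes, a replicate block and each array left out. All arrays lay on 1 slide, so the slide was not fitted as a block.

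Named genes were every member past the threshold in either fit, every member above background on all arrays, the brightest probe of members above it in 1 sub-line, and the rest by symbol. Of the signalling genes the rule takes the largest changes called, or else the brightest. As 0 were called, it gives Traf1, and Traf2, Tank, Traf5, Traf6, Rnf31, Tab2, Tab3, Fadd, Casp8, Ripk1, Cflar, Tnfaip3, Eda and Ripk3 were named after their values were seen. The members and lists were chosen with earlier results of these data known. The values of 1 marker gene are not reported here.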

Additional observations from a re-analysis of the deposited data

How the results depend on the processing

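The count of member genes called was 2, and it was 0 with normexp background correction, 1 (Tnf, whose probe was above background on no array) with no filter on background, 1 (Tnfrsf14) with the filter on all 4 arrays and between 1 and 3 with an array left out, where the lone array of a sub-line is assumed to vary like the others. Without 4T1-S replicate 2 it was 1 (Ltb), and without 4T1-S replicate 1 it was 1 (Tnfrsf11b). The count of member probes was 4, against 1 with normexp, 1 with no filter, 0 with the filter on all arrays and between 2 (without 4T1-S replicate 2) and 5 with an array left out. The signalling list had 0 calls, 1 with an intensity trend and robust fitting, 2 with the mean of a gene's probes and between 0 and 2 with an array left out. Over all genes, 1126 were called, 743 with quantile normalization (269 higher and 474 lower), 512 with normexp (230 and 282), 271 with no filter (97 and 174), 610 with the filter on all arrays and between 310 and 1822 with an array left out (310 without 4T1-S replicate 2, 359 without 4T1-S replicate 1, 1822 without 4T1-A replicate 2). Cyclic loess gave 249 higher and 532 lower.

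With the replicate number as a block, 6 member genes were called (Ltb, Ngfr, Relt, Tnfrsf11b, Tnfrsf14 and Tnfsf13), 9 member probes, 6 signalling genes, all higher (Rnf31, Tank, Traf1, Traf2, Traf5 and Traf6), and 3686 of all genes. The labels do not say that a number marks a shared culture. Across genes, replicate 1 minus replicate 2 correlated at 0.42 between the sub-lines, but 2 pairs cannot settle a pairing. No single difference that was called changed its direction under the alternatives run. A signal below background on at least 1 array limits the sizes given for Ltb, Tnfrsf11a, Tnfrsf11b, Tnfrsf13b, Tnfrsf18, Tnfrsf19 and Tnfrsf26. The slide was not run as a block, since there was 1.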
